A study of Mus musculus with 12 samples.

Results

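Messenger RNA of 10 genes for apolipoproteins and lipoprotein assembly was followed across 12 mouse RNA-seq libraries. The genes were picked by name from the pathway, with earlier results of these data known, and no measured value served as a criterion: Apob, Mttp, Apoe, Apoa1, Apoa2, Apoa4, Apoa5, Apoc1, Apoc2 and Apoc3. They are 10 of the 24062 genes counted, and all 10 passed the filter on low counts in every fit. Apolipoproteins are the protein part of the particles that carry fat and cholesterol through the blood. In hepatocytes, and in enterocytes of the gut, MTTP loads lipid onto a growing apolipoprotein B chain to form very low-density lipoprotein or chylomicrons. Exchangeable apolipoproteins then join the particle surface, where they control its lipolysis, its uptake through receptors and the return of cholesterol on high-density lipoprotein (HDL).

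The study compared a control diet with a diet lacking tryptophan (No-Trp) in 2 mouse liver cancer models, with 3 mice per group and 1 library per mouse. The MYC-ON livers came from FVB mice carrying LAP-tTA, which drives the tetracycline transactivator in hepatocytes, and TRE-MYC, which it switches on once doxycycline (1 mg/mL in the breeders' water) is withdrawn at birth. Control livers were mice 101, 102 and 103, No-Trp livers mice 105, 107 and 108. The other model was HCC53N, a line of mouse liver tumor cells without p53 and with mutant NRAS. It was injected subcutaneously into NOD SCID hosts, female in the methods, to form xenografts. The methods add that experiments were also repeated with males, and they give males for the MYC-ON mice. Control xenografts were mice 40, 41 and 43, No-Trp xenografts mice 35, 36 and 37. Mice of both models ate their diet for 21 days. The labels give FVB MYC ON as the cancer cell genotype in both. The methods derive HCC53N from liver tumors with p53 loss and mutant NRAS, and name no MYC transgene for it. Labels and methods thus differ on the genotype of HCC53N, which is not settled here. The labels give 45 days as the age of MYC-ON males where they describe the comparison with wild type, and do not say whether it holds for the mice on these diets. All grafts came from 1 line, so their mice replicate the host and the graft, not the line.

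Reads on genes ranged from 14660963 to 26085349 per library. Of the 12 libraries, livers 101 and 108 and xenografts 41 and 43 carry the tag resub on their deposited files, read here as a resubmission mark whose meaning the sources used here do not give. Replicate libraries differed by 34.6 to 274 times the counting noise, so spread between mice, not depth, set the error. Albumin (Alb) was present in all groups, with a mean of 10620 CPM (counts scaled to library size) in control livers and 46862 CPM in No-Trp livers, on the scale of the 6 livers. On the scale of the 6 xenografts its mean was 268 CPM on the control diet and 224 CPM on No-Trp. Liver control mouse 102 stood apart from mice 101 and 103: its 15 hepatocyte markers summed to 49100 CPM on the scale of the 6 livers, against 16649 and 15811 CPM. Fewer cells of a type and less RNA per cell cannot be told apart in such bulk samples.

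The 10 genes lie at 5 places in the genome (GENCODE M21 on GRCm38). Apoa1 (chr9:46228580-46230466, plus strand), Apoc3 (chr9:46232933-46235636, minus), Apoa4 (chr9:46240696-46243459, plus) and Apoa5 (chr9:46268633-46271919, plus) form 1 cluster. Apoe (chr7:19696109-19699188), Apoc1 (chr7:19689481-19692660) and Apoc2 (chr7:19671579-19677941) form another, all on the minus strand. Apoa2 (chr1:171225054-171226379, plus), Apob (chr12:7977648-8016835, plus) and Mttp (chr3:138089854-138144968, minus) stand alone. Exons of Apoc2 share 79.46% of their length with the annotated gene Gm44805 on the same strand, which the authors did not count, and those of Mttp 7.364% with Trmt10a on the other strand. Exons of Apoa4 and Apoa5 also overlap annotated genes on the opposite strand. How HTSeq treated strand and overlapping genes is not given in the sources used here, so the counts of these 4 genes are less certain.

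Sequence upstream of the start site is shown for 4 genes whose diet differences in the livers ran from none to the largest of the 10. They are Apoa5 and Apoa1 from the same cluster, Apob, and Apoc2. Each is RefSeq sequence on GRCm38.p6, 5′ to 3′ on the gene's strand, and ends before the start site and any annotated exon. Capitals mark TATAAA, the E-box CACGTG or GTTAAT.
Apoa5 (chr9:46268358-46268607, plus): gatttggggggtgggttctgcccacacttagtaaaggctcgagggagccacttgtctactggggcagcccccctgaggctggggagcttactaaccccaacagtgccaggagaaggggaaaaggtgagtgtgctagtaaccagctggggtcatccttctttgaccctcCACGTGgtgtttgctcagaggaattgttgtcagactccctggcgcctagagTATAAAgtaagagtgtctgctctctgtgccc
Apoa1 (chr9:46228380-46228579, plus): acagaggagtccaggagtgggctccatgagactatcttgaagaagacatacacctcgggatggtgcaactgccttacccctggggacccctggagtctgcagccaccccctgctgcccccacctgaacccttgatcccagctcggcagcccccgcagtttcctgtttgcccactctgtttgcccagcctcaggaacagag
Apob (chr12:7977427-7977647, plus): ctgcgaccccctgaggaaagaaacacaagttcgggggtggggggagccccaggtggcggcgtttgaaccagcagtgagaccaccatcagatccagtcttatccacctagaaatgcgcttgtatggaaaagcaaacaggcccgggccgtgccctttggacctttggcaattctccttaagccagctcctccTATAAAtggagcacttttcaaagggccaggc
Apoc2 (chr7:19677942-19678082, minus): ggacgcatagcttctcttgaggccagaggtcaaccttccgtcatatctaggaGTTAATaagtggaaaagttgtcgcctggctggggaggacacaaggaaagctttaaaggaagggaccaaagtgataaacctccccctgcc
The window of 250 bases before to 50 bases after the start was at hand for 8 of the 10 genes, all but Apoc1 and Apoc3. Apoa2, Apoa5 and Apoe have several windows, each at another annotated start. A match in any of them was counted for the gene, while the shares of promoters are per window. Each window was searched on both strands for 5 motifs, and the only matches that share bases are those of TATAAA on either strand of Apoe. All matches of Apoe lie at starts inside the gene, and its window at the 5′ end of the gene (chr7:19699139-19699438) holds none. CACGTG, present in 7.15% of 32851 mouse promoter windows, occurred only in Apoa5 among the 8, with its first base at -82 from the start that ends the window shown (another annotated start puts it at -107). TATAAA, present in 13.62%, occurred in 4 (Apoa2, Apoa5, Apob and Apoe), at -31 in Apoa5 and at -60 in Apob. The Apob value is counted from the RefSeq start, which lies downstream of the GENCODE start given above. The stretch shown ends before the GENCODE start, so the match lies closer to that start. GTTAAT, a core of the site of hepatocyte nuclear factor 1, is present in 7.099% and occurred in Apoc2, at -89, and Apoe. CAAAGTCCA and CAAAGGTCA, forms of the site of hepatocyte nuclear factor 4, are present in 0.4749% and 0.4779% and in 0 of the 8. A match is a run of letters and was not tested as a binding site.

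In the MYC-ON livers, 6 of the 10 genes were higher on No-Trp, and 0 were lower. A call here needed an adjusted p no larger than 0.05 (edgeR's quasi-likelihood test, Benjamini-Hochberg over 14122 genes) together with a change of 1 or more on the log2 scale. The 6 were Apoe, Apob, Apoa5, Apoa4, Apoc1 and Apoc3, with folds from 3.22 (Apoa4) to 9.08 (Apoa5). Of all genes tested, 9.28% were called higher, 7.27% lower and 16.5% in either direction. The median log2 fold change was 1.76 over the 10 genes and -0.0031 over all genes tested. Every No-Trp liver lay above every control liver for 8 of the 10, which was so for 24.3% of all genes tested. Values below are CPM with TMM factors of the 6 livers, in the order of the mouse numbers, and ± is the SD of 3 mice.

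**Figure D1:**
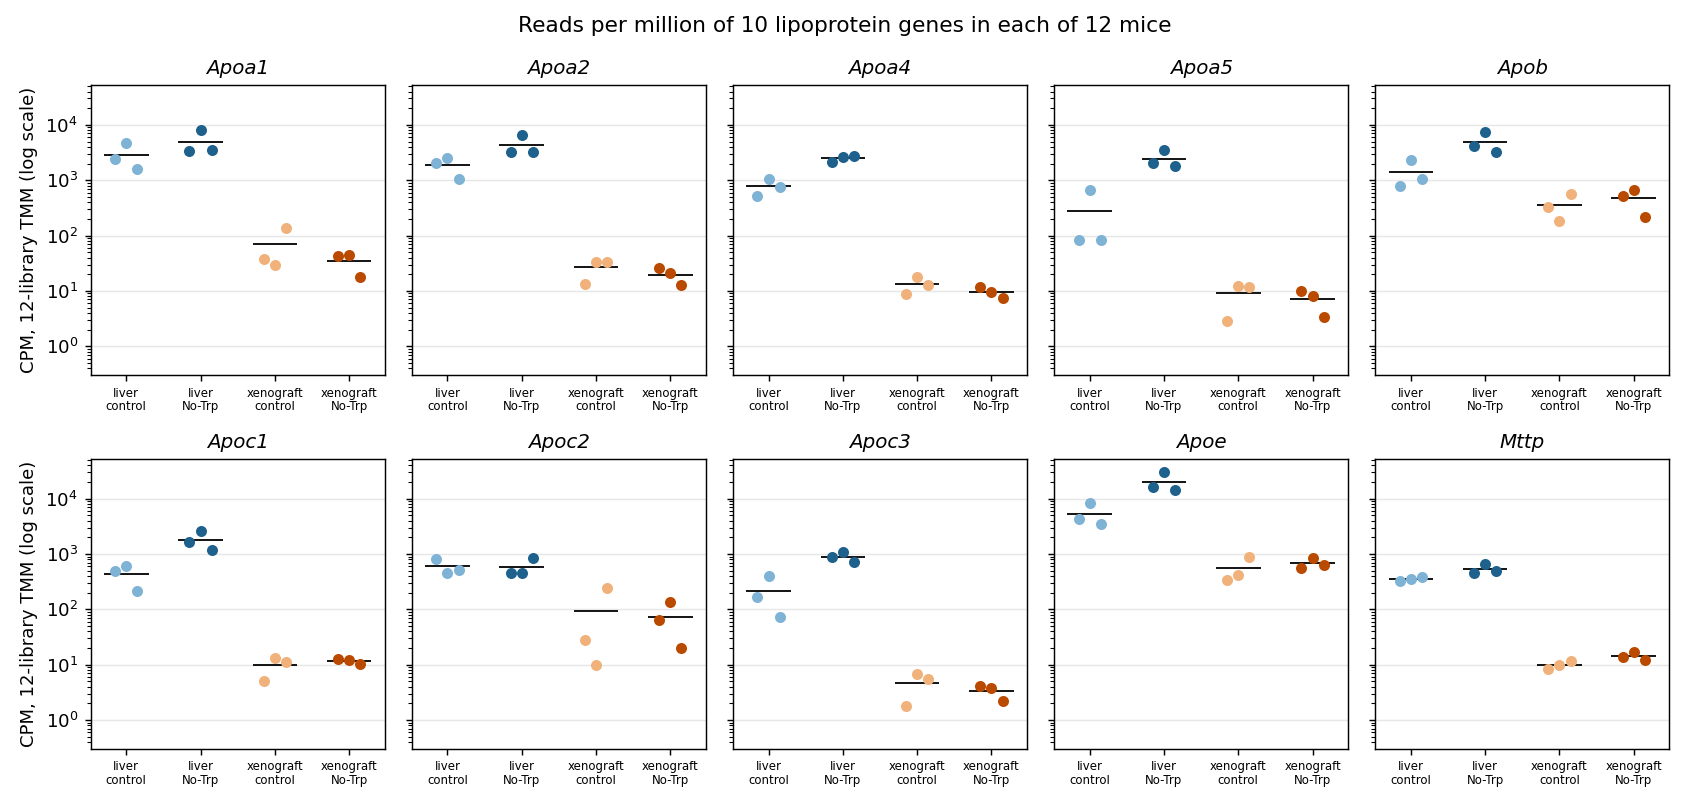
CPM of each of the 10 genes in each mouse (points) with the group mean (line), on a log axis, scaled by TMM factors of all 12 libraries. Every liver point lies above every xenograft point for all 10 genes, and in the livers the diet groups overlap for Apoa1 and Apoc2.

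Apob encodes the structural protein of very low-density lipoprotein. Control livers held 697, 2053 and 924 CPM of Apob, and No-Trp livers 3699, 6621 and 2836 CPM. The groups did not overlap, with control mouse 102 nearest to the No-Trp livers. Means were 1225 ± 726 and 4385 ± 1984 CPM, and the log2 fold change was 1.84 (SE 0.53, adjusted p = 0.0429). Mttp encodes the transfer protein that loads lipid onto apolipoprotein B. Its values were 288, 311 and 336 CPM on the control diet and 399, 599 and 442 CPM on No-Trp. The groups did not overlap, yet Mttp was not called (log2 fold change 0.62, SE 0.22, adjusted p = 0.0728).

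Apoe encodes the ligand through which remnant particles are taken up by receptors, and macrophages make it as well as hepatocytes. Control livers held 3789, 7169.9 and 3057 CPM of Apoe, against 14680, 27301 and 12548 CPM on No-Trp. All No-Trp livers were above all controls, and mouse 102 was again the highest control. The mean moved from 4672 ± 2194 to 18176 ± 7974 CPM, a log2 fold change of 1.96 (SE 0.53, adjusted p = 0.0366). Its neighbor Apoc1, which encodes a small exchangeable apolipoprotein, stood at 433, 530.5 and 193 CPM in control and 1431, 2289 and 1051 CPM in No-Trp livers. The lowest No-Trp liver was above the highest control, and the log2 fold change was 2.04 (SE 0.46, adjusted p = 0.0258). Macrophage markers, 12 genes in all, had 0 called in either direction. Their summed level overlapped between control livers (577 to 769.95 CPM) and No-Trp livers (495 to 899 CPM).

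HDL apolipoproteins come next. Apoa1, the main protein of HDL and an activator of LCAT, had 2153, 4078 and 1423 CPM in control and 3028, 7242 and 3114 CPM in No-Trp livers. Control mouse 102 exceeded No-Trp mice 105 and 108, so the groups overlapped (log2 fold change 0.81, SE 0.53, adjusted p = 0.287). Apoa2, the second HDL protein, had 1800.2, 2176 and 924 CPM against 2910.2, 5924 and 2888 CPM. These groups did not overlap, but Apoa2 was not called (log2 fold change 1.26, SE 0.46, adjusted p = 0.0802). For Apoa4, which encodes an apolipoprotein of HDL and chylomicrons that gut and liver make, the values were 464, 929 and 683 CPM against 1863, 2354 and 2475 CPM. The groups stood apart with little spread on No-Trp, at 692 ± 233 and 2231 ± 324 CPM. Its log2 fold change was 1.69 (SE 0.33, adjusted p = 0.0209), the smallest adjusted p of the 10.

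Apolipoproteins that regulate lipolysis moved unequally. Apoa5, an activator of triglyceride clearance, had 73.9, 578 and 75.4 CPM in control livers and 1836, 3141 and 1625 CPM in No-Trp livers. Mice 101 and 103 were close to each other, mouse 102 was far above them, and all No-Trp livers were higher still. Its log2 fold change of 3.18 (SE 0.90, adjusted p = 0.0426) had both the largest size and the largest SE among the 10. Apoc3, an inhibitor of lipoprotein lipase, had 149, 354 and 64.1 CPM against 798, 982 and 626 CPM. The groups did not overlap (log2 fold change 2.08, SE 0.59, adjusted p = 0.0419). Apoc2, the cofactor that lipoprotein lipase needs, had 719, 394 and 459 CPM against 405, 399 and 759.6 CPM. Here mouse 102 was the lowest control, the groups overlapped throughout, and the log2 fold change was -0.0074 (SE 0.35, adjusted p = 0.990).

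**Figure D2:**
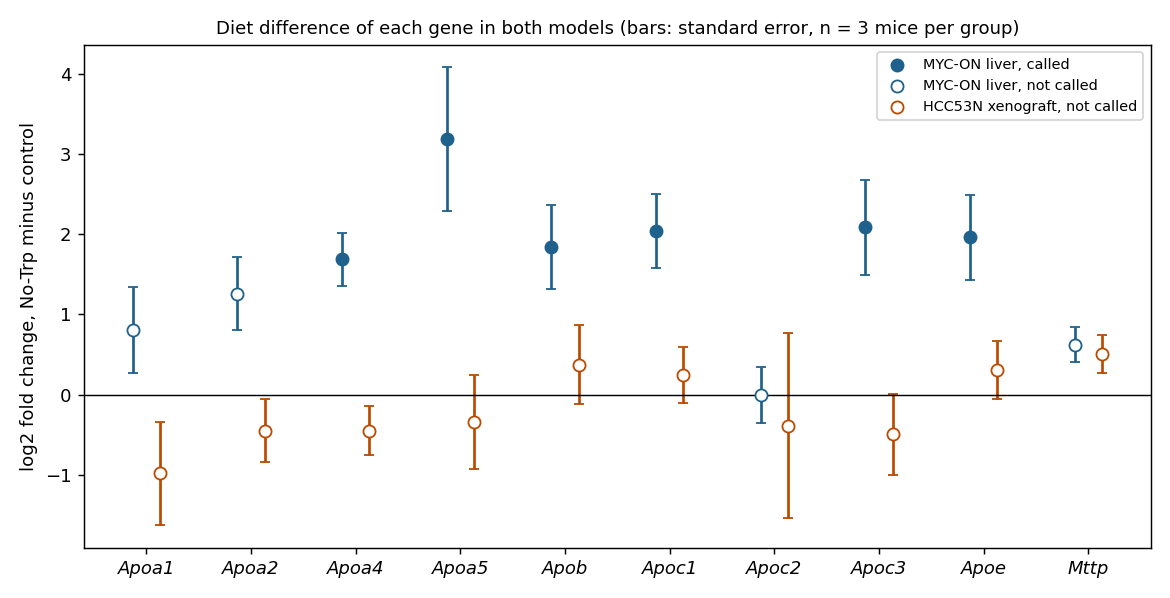
Log2 fold change, No-Trp minus control, of each gene in livers (blue) and xenografts (orange), with bars of 1 standard error and filled points for genes called. The 6 filled points are Apoa4, Apoa5, Apob, Apoc1, Apoc3 and Apoe in the livers, and no xenograft point is filled.

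The calls depended on which mice entered the fit. Without control mouse 101 or 103, or without No-Trp mouse 105, 0 of the 10 genes were called in edgeR. Of them 6, 6 and 8 had an unadjusted p under 0.05. With all 6 livers, 5901 of all 14122 genes tested had such a p. Calls higher over all genes ranged from 7 to 1959 when 1 mouse was left out. Without mouse 107 only Apoa4 remained, and without mouse 108 Apoa4, Apoc1 and Apoe did. Leaving out mouse 102, the control with high hepatocyte markers, gave 6 calls, and Apoa5 then had a log2 fold change of 4.87. The log2 fold changes of the 6 called genes stayed above 1 in all of these fits, the lowest being 1.41 (Apob without mouse 107). Their adjusted p reached at most 0.0931 for Apoa4, 0.0912 for Apoc1, 0.131 for Apoc3, 0.147 for Apoe, 0.150 for Apoa5 and 0.157 for Apob. DESeq2 called 7, the same 6 and Apoa2. The share of all genes that DESeq2 called is not reported here. Among libraries without the resubmission mark (2 against 2) the median log2 difference of the 10 genes was 1.70 with 9 above 0, and between the marked ones (1 against 1) it was 1.502 with 10 above 0. The fit over the unmarked libraries alone called 0 members, with 5 at an unadjusted p under 0.05. The share of all genes under 0.05 in that fit is not reported here.

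**Figure D3:**
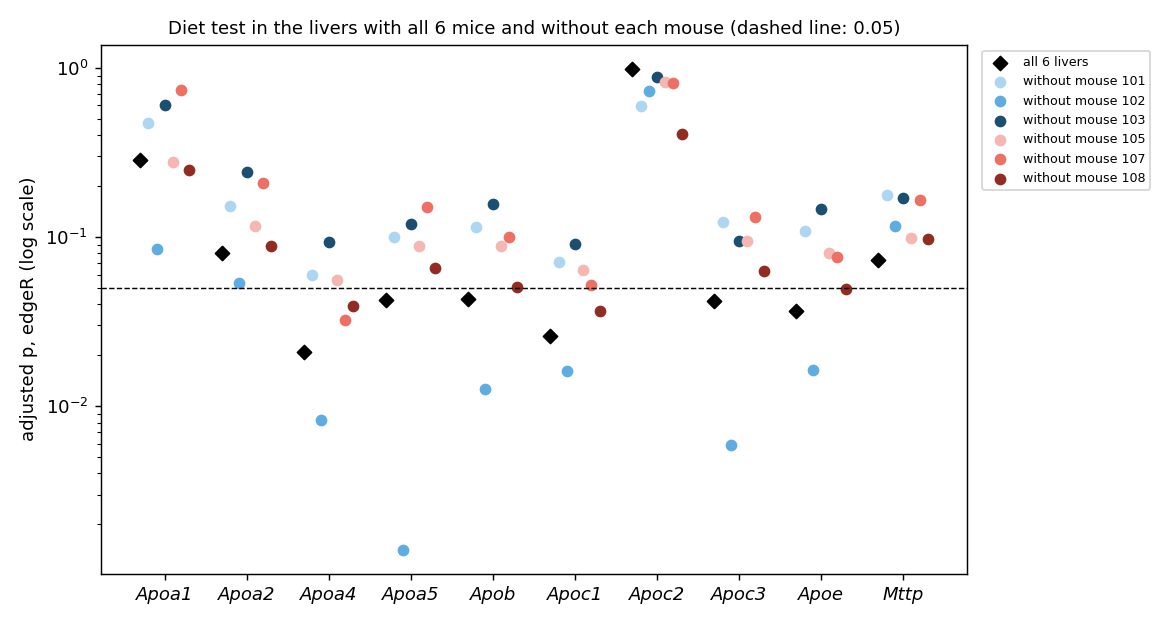
Adjusted p of the diet test in the livers (log axis) for each gene with all 6 mice (diamonds) and without each mouse in turn (circles), and a dashed line at 0.05. Without mouse 102 the 6 called genes lie lowest, and without mouse 103 all 10 lie above the line, with Apoa4 at 0.0931.

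Hepatocyte markers moved with the apolipoproteins. Of 15 markers, 7 were called higher on No-Trp, 0 lower, and all 15 had a log2 fold change above 0 (median 1.76). The 3 most abundant of those called were Ahsg (log2 fold change 2.702, SE 0.67, adjusted p = 0.0310), Cps1 (1.70, SE 0.34, adjusted p = 0.0220) and Ttr (1.76, SE 0.43, adjusted p = 0.0302). Summed over the list, the 15 markers reached 15811 to 49100 CPM in control livers and 62198 to 154041 CPM in No-Trp livers. Alb was a large part of this sum, with means of 10620 and 46862 CPM. It was not called itself (log2 fold change 2.14, SE 0.83, adjusted p = 0.0942). Reads of the 10 genes together took 1.08%, 2.03% and 0.989% of gene reads in control mice 101, 102 and 103, and 3.05%, 4.34% and 2.77% in No-Trp mice 105, 107 and 108. Against 100 hepatocyte marker reads they amounted to 63.5, 37.8 and 51.5 reads in controls and 40.2, 36.9 and 45.6 on No-Trp. These last groups overlapped, the mean log2 ratio being 0.29 lower on No-Trp.

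Taken gene by gene, this ratio separated the members. Apoa5 had 0.444, 1.18 and 0.477 reads per 100 hepatocyte marker reads in control livers and 2.38, 2.04 and 2.61 in No-Trp livers. It was the only member above all controls on No-Trp by this ratio (log2 difference 1.89), as were 1.37% of all genes tested. Apoa1 had 12.9, 8.31 and 8.997 reads against 3.92, 4.70 and 5.01, and was the only member below all controls, as were 65.6% of all genes tested. The other 8 overlapped, and Apob (log2 difference -0.042), Apoe (0.027) and Apoc1 (0.15) lay near 0. Mean ratios of Apoc2 (-1.97), Mttp (-1.34), Apoa2 (-0.69) and Apoa4 (-0.21) were lower on No-Trp, and that of Apoc3 (0.45) was higher. This ratio was chosen after the data were seen, rests in large part on Alb and carries no test. The part of hepatocyte content in the calls was not tested.

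**Figure D4:**
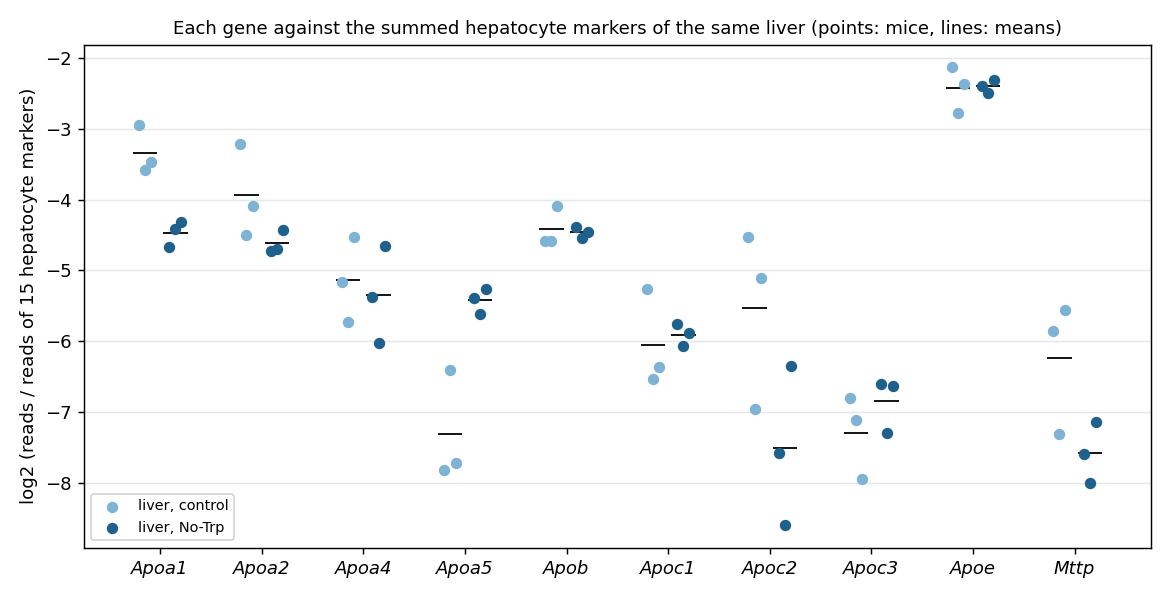
Log2 of the reads of each gene over the summed reads of 15 hepatocyte markers in the same liver, for control (light) and No-Trp (dark) mice, with lines at the means. The No-Trp points lie above all control points for Apoa5 and below them for Apoa1, and the diet groups overlap for the other 8 genes.

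Within the cluster on chromosome 9, shares of reads are free of any scaling between libraries. Apoa5 took 2.60%, 9.73% and 3.36% of the reads of the 4 genes in control livers and 24.4%, 22.9% and 20.7% in No-Trp livers. Apoa1 took 75.8%, 68.7% and 63.4% against 40.2%, 52.8% and 39.7%. Apoc3 took 5.25%, 5.96% and 2.85% against 10.6%, 7.16% and 7.98%. Diet groups of livers did not overlap for any of these 3 shares, whereas those of Apoa4 did (15.6% to 30.4% against 17.2% to 31.6%). The 4 shares add up to the whole in each mouse, so they are not independent. A lower share of Apoa1 is not a lower level, since its CPM had a log2 fold change of 0.81 with overlapping groups. No share for other genes is given for comparison. In the cluster on chromosome 7, Apoe held 76.7% to 88.6% of the reads in control and 87.4% to 91.0% in No-Trp livers. Apoc2 took 14.5%, 4.87% and 12.4% in controls and 2.45%, 1.33% and 5.29% on No-Trp, with an overlap between control mouse 102 and No-Trp mouse 108.

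**Figure D5:**
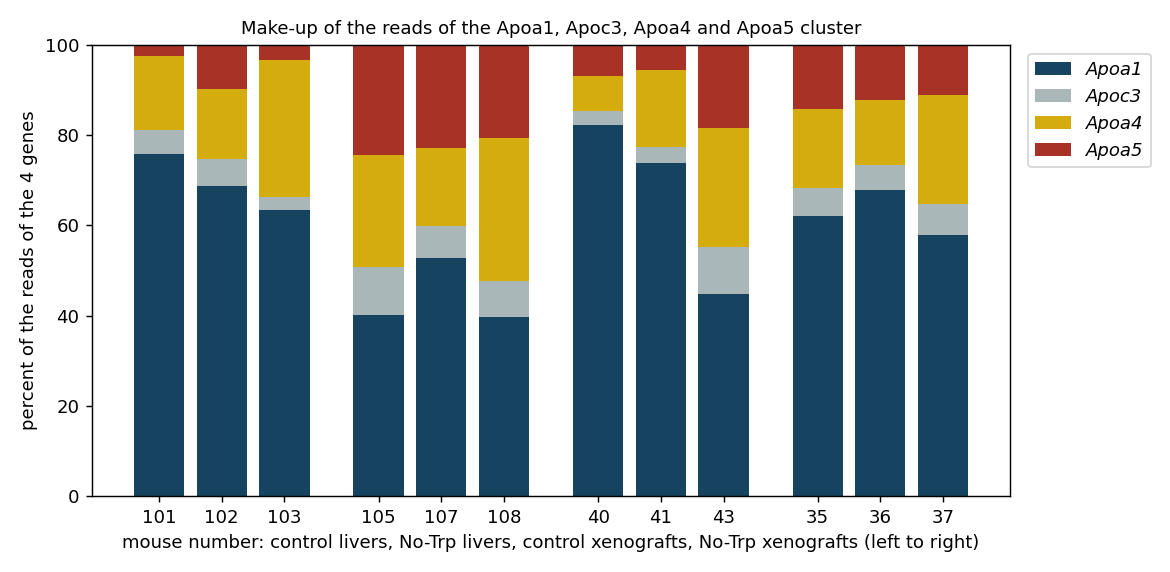
Share of each gene in the summed reads of Apoa1, Apoc3, Apoa4 and Apoa5 in each of the 12 mice, as stacked bars from 0 to 100 percent. Apoa5 makes up 20.7% to 24.4% in No-Trp livers, 2.60% to 9.73% in control livers and 5.60% to 18.5% in control xenografts.

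Levels of different genes were compared per kilobase of exon, in CPM on the scale of all 12 libraries. In control livers the order of the means was Apoa2 (3465), Apoe (2489), Apoa1 (2353), Apoc2 (732), Apoc1 (590.3), Apoa4 (434), Apoc3 (213), Apoa5 (109.8), Apob (100.1) and Mttp (57.0). Ranges of neighbors overlapped at every step but that from Apoa1 (1296 to 3780.1) to Apoc2 (556 to 1006). In No-Trp livers the order was Apoe (9537), Apoa2 (8162), Apoa1 (4047), Apoc1 (2399), Apoa4 (1381), Apoa5 (979), Apoc3 (888), Apoc2 (721), Apob (353) and Mttp (86.8). Neighbors stood apart there from Apoc1 to Apoa4, from Apoc2 to Apob and from Apob to Mttp, and overlapped elsewhere. By these means, Apoc2 stood above Apoc1, Apoa4, Apoc3 and Apoa5 on the control diet and below all of them on No-Trp. This order did not hold in every mouse. In control mouse 102, Apoc2 (556) lay below Apoc1 (817) and Apoa4 (587). In No-Trp mouse 108, Apoc2 (1053) lay above Apoc3 (695) and Apoa5 (726).

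Transcripts differ in how much tryptophan they encode, which is described here because the diet lacked it. Among 19656 coding genes with a coding transcript in GENCODE, the median share of tryptophan codons was 1.105%. Apoa2 has 0 among 102 codons and Apoa4 1 among 395 (0.2532%). Mttp has 4 among 894 (0.4474%), Apob 41 among 4505 (0.9101%), Apoc2 1 among 97 (1.031%), Apoc1 1 among 88 (1.136%) and Apoa5 5 among 368 (1.359%). Richest were Apoe with 7 among 311 (2.251%), Apoa1 with 7 among 264 (2.652%) and Apoc3 with 3 among 99 (3.03%), which is at the 95.82 percentile of coding genes. Genes called higher in the livers lie at both ends of this order, as do genes not called.

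Other genes of the pathway were taken from lists. Of 6 further apolipoproteins, 3 were called higher and 0 lower in the livers (median log2 fold change 1.58): Apoh (1.57, SE 0.44, adjusted p = 0.0400), Apoc4 (2.37, SE 0.43, adjusted p = 0.0196), which lies between Apoc1 and Apoc2, and Apof (1.58, SE 0.46, adjusted p = 0.0445). Of 12 partners of assembly and secretion, 5 were called higher and 0 lower (median 1.10). They include P4hb, the subunit that MTTP needs (1.22, SE 0.30, adjusted p = 0.0305), and Mia3 (1.14) and Mia2 (1.41), receptors that pack large cargo for export. Of 3 genes for editing of Apob RNA, 0 were called in edgeR, although A1cf (0.99, adjusted p = 0.0668) and Rbm47 (0.56, adjusted p = 0.0442) had an unadjusted p under 0.05.

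Receptors and their regulators had 4 called higher and 1 lower of 11 (median 0.92). Sdc1 (1.15, SE 0.29) and Vldlr (3.42, SE 0.36) were among those called higher. Lipases and lipid transfer had 5 of 12 called higher and 0 lower (median 1.13), among them Angptl4 (1.59, SE 0.23), which inhibits lipoprotein lipase, and Lcat (1.497, SE 0.37), which esterifies HDL cholesterol. Cholesterol exporters had 3 of 4 called higher and 0 lower: Abca1 (1.25, SE 0.27), which loads apolipoprotein A-I with lipid, and Abcg5 (2.95, SE 0.58) and Abcg8 (2.66, SE 0.60). Of 19 transcription factors known to act on apolipoprotein genes, 9 were called higher and 0 lower (median 1.04). Among the factors called, Rxra (1.46, SE 0.28), Creb3l3 (1.05, SE 0.29) and Cebpa (1.04, SE 0.27) had the highest levels.

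Markers of other cells were read beside these counts. Endothelial markers had 2 of 8 called higher (Clec4g and Tek) and fibroblast and stellate markers 2 of 8 (Dcn and Pdgfra), with 0 lower in both. Erythroid markers had 4 of 6 called lower and 0 higher, Slc4a1 by a log2 fold change of -5.53. Their sum was 52.2, 506 and 339 CPM in control livers and 17.4 to 25.7 CPM in No-Trp livers. Adipocyte markers had 3 of 7 tested, with Cidec higher and Fabp4 lower. Cholangiocyte markers had 0 of 6 called, and enterocyte markers 0 of the 3 that passed the filter on low counts. Gut enterocytes also make Apob, Mttp and Apoa4, and the summed enterocyte markers ranged from 17.7 to 43.0 CPM in control and from 31.0 to 50.6 CPM in No-Trp livers. The part of these cells in the differences of the 10 genes was not tested.

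In the HCC53N xenografts, 0 of the 10 genes were called in either direction, in edgeR (14704 genes tested) or in DESeq2, and 0 had an unadjusted p under 0.05. Few genes were called there at all, 0.36% of those tested, 0.245% as higher and 0.116% as lower. The median log2 fold change of the 10 was -0.36, with 4 above 0, against -0.0045 over all genes tested. Values are CPM with TMM factors of the 6 xenografts, mice 40, 41 and 43 on the control diet and 35, 36 and 37 on No-Trp.

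Apob stood at 631, 376 and 213 CPM in control and 588, 742 and 251 CPM in No-Trp xenografts. Apoe stood at 1004, 382 and 482 CPM against 633, 939 and 736 CPM. Both genes overlapped between the diets, with log2 fold changes of 0.37 (SE 0.50, adjusted p = 0.753) and 0.31 (SE 0.36, adjusted p = 0.712). Mttp, at 13.3, 9.36 and 11.05 CPM against 15.1, 19.1 and 13.6 CPM, was the only one of the 10 whose groups did not overlap, as did 10.3% of all genes tested with No-Trp higher. Its log2 fold change was 0.51 (SE 0.24, adjusted p = 0.326).

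Apoa1 had 158, 42.9 and 33.8 CPM against 47.6, 50.7 and 20.3 CPM. Mouse 40 alone was high, and the log2 fold change of -0.98 (SE 0.64, adjusted p = 0.490) became 0.044 without it. Apoc2 had 275, 31.8 and 11.3 CPM against 71.2, 149 and 22.7 CPM, a wide range among mice of 1 diet. Its log2 fold change was -0.39 (SE 1.15, adjusted p = 0.899), and 1.903 without mouse 40 (adjusted p = 0.342). Apoa2, Apoa4, Apoa5, Apoc1 and Apoc3 lay between 2.03 and 38.5 CPM in all 6 xenografts, with log2 fold changes from -0.50 (Apoc3) to 0.25 (Apoc1). Mouse 40 was the only unmarked control, and against it alone the 3 No-Trp xenografts had a median log2 difference of -0.60 over the 10 genes, with 2 above 0.

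Other genes of the lists were called in the xenografts. Apod, an apolipoprotein of the lipocalin family made by many tissues, was called higher (5.43 against 69.0 CPM, log2 fold change 3.66, SE 0.32, adjusted p = 0.00956), as was Lpl, lipoprotein lipase (13.1 against 121 CPM, 3.20, SE 0.38, adjusted p = 0.0299). Adipocyte markers had 4 of 7 called higher and 0 lower, Adipoq among them (1.59 against 42.1 CPM). Their sum ranged from 16.3 to 79.2 CPM in control and from 460.2 to 990.03 CPM in No-Trp xenografts, and its part in the values of Apod and Lpl was not tested.

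Whether the diet response differed between the models was tested by the interaction term over all 12 libraries. It shares its samples with both diet comparisons. All 10 genes had a lower response in the xenografts, and 1 of them, Apoa4, was called (log2 difference -2.10, SE 0.43, adjusted p = 0.0117), as were 6.01% of all 15472 genes tested in that direction. Next came Apoc3 (-2.53, SE 0.83, adjusted p = 0.0593), Apoa5 (-3.48, SE 1.14, adjusted p = 0.0609) and Apoc1 (-1.76, SE 0.59, adjusted p = 0.0626). Apoa2 (-1.67), Apoe (-1.62), Apoa1 (-1.75) and Apob (-1.43) had adjusted p values from 0.0897 to 0.218. Apoc2 (-0.35) and Mttp (-0.088) were near 0. The call of Apoa4 held in all 20 alternatives (adjusted p of at most 0.0359), and the number called ranged up to 6 with DESeq2. For DESeq2 the share of all genes called is not reported here. A different response between the models was thus shown for Apoa4 and not for the other 9. Of the 15 hepatocyte markers, 4 were called lower in this test and 0 higher. None had a log2 difference above 0, and their median was -1.96, beside -1.71 for the 10 genes.

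Levels in the xenografts were far below those in the livers on both diets. All 10 genes were called lower on the control diet, where 20.2% of all genes tested were, and all 10 on No-Trp, where 19.1% were. Every xenograft lay below every liver for all 10 on each diet, which was so for 31.8% of all genes tested on the control diet and 29.5% on No-Trp. On the control diet the folds ran from 3.89 (Apob) to 69.7 (Apoa2), and on No-Trp from 8.10 (Apoc2) to 344 (Apoa5). These comparisons share their libraries with the diet comparisons. On the scale of all 12 libraries, Apob stood at 1395 ± 838 CPM in control livers and 359 ± 186 CPM in control xenografts (log2 fold change -1.96, SE 0.55, adjusted p = 0.00936). Mttp stood at 354 ± 25.6 and 9.89 ± 1.74 CPM (-5.16, SE 0.23, adjusted p = 1.36e-08). Apoc2 had the least certain difference, at 595 ± 195 and 93.7 ± 130 CPM (-2.67, SE 0.99, adjusted p = 0.0365). Its call was lost without liver 101, 103 or 107, without xenograft 35, 41 or 43 and without a filter on low counts, with an adjusted p of up to 0.109.

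Hepatocyte markers were lower as well, 15 of 15 on both diets, with median log2 fold changes of -5.73 (control) and -7.61 (No-Trp) beside -5.28 and -7.20 for the 10 genes. The make-up of the 10 genes' reads differed. Apob took 25.2% to 42.8% of them in control xenografts and 6.60% to 11.4% in control livers, while Apoa1 took 3.99% to 7.30% and 17.5% to 22.0%. Apoe was the largest share in each group, from 35.9% to 67.9% over all mice. Organ and site, host strain, cell of origin and, by the methods, tumor driver and sex all change with the model and cannot be told apart.

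The genes with the most similar profile to each of the 10 were found by the root mean square difference of centred log2 CPM over the 12 libraries, among 15471 other genes. A small value means that 2 genes rise and fall by like amounts. The nearest were Cps1 for Apoa4 (0.17), Serpinc1 for Apoa2 (0.21), Cyp2a12 for Apoa5 (0.24), Pxmp2 for Apoe (0.27), Cfhr2 for Apoc1 (0.30), F10 for Mttp (0.30), BC024386 for Apoc3 (0.31), Uroc1 for Apoa1 (0.37) and Cfb for Apob (0.39). Apoc2 had no close profile, its nearest being Cys1 at 0.68. Next in line were Apoh (0.21) and Slc27a2 (0.24) for Apoa2, Fmo5 (0.22) and Aldh8a1 (0.25) for Apoa4, Azgp1 (0.26) and Cyp3a25 (0.27) for Apoa5, and Nr1h4 (0.35) and Cat (0.36) for Apoe. They were Apoc4 (0.35) and Sec14l2 (0.35) for Apoc1, Cyp2d26 (0.34) for Apoc3, and Aldh4a1 (0.33) and 0610043K17Rik (0.34) for Mttp. They were Afm (0.49) for Apoa1, Cutal (0.40) and Sepp1 (0.42) for Apob, and Fgb (0.70) and Bcmo1 (0.72) for Apoc2. Among the 10 themselves the closest pairs were Apoc1 with Apoc3 (0.45) and Apoa2 with Apoa4 (0.46). Since the gap between livers and xenografts dominates these profiles, likeness describes that gap first.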

How the data were processed

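Polyadenylated RNA of 6 MYC-ON livers and 6 HCC53N xenografts was sequenced. The authors deposited 1 file of read counts per gene for each library, whole numbers that were not normalized. Per the submitters' processing notes and the methods, reads were trimmed with Trim Galore, aligned to mm10 with STAR 2.7.2b, handled with SAMtools 1.9 and counted with HTSeq. Rows for reads on no gene or several (24.7% to 39.4% of reads) entered neither library sizes nor tests. Groups came from the sample titles, and each sample is a separate mouse. No 2 replicates agreed within counting noise, and 0 columns were unused.

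The quasi-likelihood test of edgeR 4.0.16 (R 4.3.3; two-sided, robust, after TMM and filterByExpr) was run on the counts in the livers alone, the xenografts alone, and all 12 libraries for the interaction and the contrasts between models. A standard error is the log2 fold change over the square root of F. P-values were adjusted over all genes tested and set each difference against the spread between replicate libraries, 1 per mouse. The coefficient of variation between replicates was 31.61% in livers and 28.73% in xenografts. The scripts were tested on simulated data. Alternatives were DESeq2 1.42.0, RLE factors, library totals, no filter, a minimum of 10 counts per library, the resubmission mark as a covariate, unmarked libraries only, Rn45s left out (12.08% of the reads of liver 101), the 10 genes left out of the TMM factors, 1 fit over all libraries, and leaving out each library.

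The 10 genes, the gene lists and the tests were chosen with earlier results of these data known. Beside the 10, the text names up to 3 genes called higher and 3 called lower with the highest levels from each list in the livers, and the 3 nearest profiles. Some genes that this rule selects are not reported here. Alb, A1cf, Rbm47, Apod, Lpl and Adipoq were named after their values were seen. Tryptophan codons were counted in 1 GENCODE coding transcript per gene, in place of the protein sequences first planned. The ratio to hepatocyte markers was added after the data were seen. Levels per kilobase use the summed length of merged exons.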

Additional observations from a re-analysis of the deposited data

Results flagged for a closer look

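The diet response of Apoa4 differed between the models. Its log2 fold change was 2.10 lower in the xenografts than in the livers (log2 difference -2.10, SE 0.43, adjusted p = 0.0117, edgeR interaction term over all 12 libraries). All 3 No-Trp livers were above all 3 control livers, and the diet groups of the xenografts overlapped. A lower response was not particular to Apoa4. Hepatocyte markers had 4 of 15 called lower, 0 higher and a median log2 difference of -1.96. Cps1, the gene nearest to Apoa4 in profile, was among those called (-2.06, SE 0.49, adjusted p = 0.0193). With 1 cell line in 1 host strain, the difference between models cannot be told apart from tumor driver, cell of origin, host, sex and site.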

How the results depend on the processing

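Over the 10 genes and the 16 alternatives, the diet difference in the livers kept its direction and its side of the threshold in 118 comparisons of gene and alternative, lost the call in 38, gained it in 1 and reversed in 3, all of Apoc2. The count of 6 genes called higher became 3 with library totals, 0 with unmarked libraries only, and 0 to 6 when 1 mouse was left out. Library totals moved the median of all genes to -0.30 in the livers, and the calls over all genes from 1311 higher and 1026 lower to 732 and 1532. They moved it to 0.11 in the xenografts and 0.41 in the interaction, whose calls went from 1036 higher and 930 lower to 1825 and 437, and to 0.17 and 0.68 between models on the control and No-Trp diets, where calls on No-Trp went from 3796 and 2959 to 5797 and 2024. Leaving out 1 mouse gave 7 to 1959 calls higher and 1 to 1248 lower over all genes in the livers. In the xenografts 0 of the 10 genes were called under any alternative. There, resubmission as a covariate turned Apob to -0.26 and Apoe to -0.38, and the unmarked libraries alone gave -0.26 and -0.39. Without 1 mouse, Apoc2 ranged from -0.38 to 0.28 in livers and from -1.18 to 1.903 in xenografts, Apoa1 from -1.34 to 0.044 and Apoc1 from -0.074 to 0.52 in xenografts. The interaction called 6 genes with DESeq2, 3 with at least 10 counts in every library, 3 with resubmission as a covariate, and 1 to 5 when 1 mouse was left out, against 1. Over all genes, leaving out 1 mouse gave 449 to 1386 calls lower in the interaction, against 930. The shares of all genes under the other alternatives just named are not reported here. In it Apoc2 ranged from -1.14 to 1.95 and Mttp from -0.25 to 0.11 when 1 mouse was left out, and library totals gave 0.32 for Mttp. Between the models 9 or 10 genes were called lower on both diets under every alternative. The causes were not tested. No paired analysis was possible because the groups share no animal numbers. Depth limits Apoc3 and Apoa5 most, with 45 and 72 reads in xenograft 41.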

Other observations

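Apod stood apart from the other apolipoprotein genes, as seen after its values were examined. It was the only one of the 6 further apolipoproteins called higher in xenografts than in livers, with a log2 fold change of 2.46 on the control diet (adjusted p = 0.000179) and 5.78 on No-Trp (adjusted p = 3.16e-07). Its diet response was 3.32 higher in the xenografts than in the livers (SE 0.55, adjusted p = 0.00678). Apoc4, beside Apoc2 on chromosome 7, had a diet response 2.40 lower in the xenografts (log2 difference -2.40, SE 0.66, adjusted p = 0.0329), while that of Apoc2 was -0.35 (adjusted p = 0.886).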
